A study of Mus musculus with 6 samples.

Results

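The cells described here are the wild-type mouse embryonic fibroblasts of a study of Ing1, a gene for a chromatin-reading protein. They are the 3 cultures labelled wild type among the 6 arrays of the series, called H2, H3 and I2, and each was grown from a different embryo and used at early passage. Their embryos were littermates of others in which a gene-trap cassette interrupted Ing1, and those deficient cultures were not analysed here. Strain, embryonic day, passage number and the meaning of the letters H and I were not stated in the sources used here. No transgene or treatment is named for any of the 3. Biotin-labelled RNA of each culture was hybridised to its own 1-colour CodeLink mouse whole-genome array. Of 18069 genes with a named transcript spot, 10897 gave a good-quality signal on all 3 arrays, a share of 60.3%, and these are called detected.

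Embryonic fibroblasts are a mixed primary culture, grown out of the minced body of an embryo and dominated by mesenchymal cells that divide, spread on plastic and secrete collagen-rich matrix. The bulk of their messenger RNA serves protein synthesis, the actin cytoskeleton and the secretory pathway. Because the starting tissue holds every embryonic lineage, transcripts of muscle, blood or organ rudiments can be carried into early passages.

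Signal is given in array medians, so that 1 is the median transcript spot of an array, and it is on a linear scale. Values in a series of 3 are in the order H2, H3 and I2 throughout, and ± is the SD over the 3 cultures. There was a single group, so nothing was tested and no p-value is given. The 3 arrays carried 34967 transcript spots each, of which 56.0%, 59.4% and 62.1% had a good flag, and the median spot stood 19.4, 21.7 and 25.4 intensity units above a local background of 32, 33 and 31. Negative control spots had a median of 0.118 to 0.153. Array H2 read the strongest spots higher than the other arrays and H3 read them lower, by a median of 0.161 and -0.166 on the log2 scale around each gene's mean in the highest 10% of genes. H2 also had the fewest good flags, with 1376 spots low on H2 but good on H3 and I2, against 640 low on H3 alone and 226 low on I2 alone.

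Gene signals ran from 0.573 to 816, with a median of 4.60. The 100 highest genes, all at 124 or more, held 20.6% of the summed signal, and the highest 10% (1089 genes) held 55.3%. These are signals of probes, which bind with different strength, so a rank is not a molar abundance. Among 1217 genes with 2 or more detected probes the strongest and weakest probe differed by a median of 2.53-fold, and in 121 of them (9.94%) by over 10-fold. Of the 100 highest genes 24 had 2 or more detected probes, and in 9 of these the difference was over 10-fold. A gene is represented by its strongest detected probe. Probe sequences were not used here, so signal shared between close copies, such as the actins or ribosomal protein pseudogenes, was not checked.

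Ribosomal protein genes led the ranking. They made up 6 of the 10 highest genes, 21 of the 30 highest and 39 of the 100 highest. Their messages are known for a run of pyrimidines at the very 5′ end, the terminal oligopyrimidine tract, through which growth signals acting on mTOR set how fast they are translated. The tract is shown here for the 5 highest-ranked ribosomal protein genes with such a run at or within 3 bases of the RefSeq start, because these genes fill the top of the ranking. Each stretch has 12 bases before the start and 18 from it on, in assembly GRCm38.p6, with the unbroken run of C or T in capitals. The run holds the start base in all but Rpl19, where it ends on the base before the annotated start, so that a transcript from that start would not carry it. Rpl19 lies at chr11:98026912-98026941 on the plus strand, Rpl27a at chr7:109519183-109519212 on the plus strand and Rpl35 at chr2:39005114-39005143 on the minus strand. Rps10 lies at chr17:27635227-27635256 on the minus strand and Rplp2 at chr7:141447639-141447668 on the plus strand. For contrast, Rpl41 (chr10:128549151-128549180, minus strand) and Rplp0 (chr5:115559455-115559484, plus strand) follow in lower case, since they lack such a run at the annotated start.
Rpl19: gCTCTCCCCTTCgcagataatgggcggagc
Rpl27a: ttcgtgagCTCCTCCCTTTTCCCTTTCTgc
Rpl35: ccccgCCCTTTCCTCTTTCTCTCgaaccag
Rps10: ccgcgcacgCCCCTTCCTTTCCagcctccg
Rplp2: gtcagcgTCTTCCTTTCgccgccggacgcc
Rpl41: acgggccggctcggaagtgacgacaccgag
Rplp0: ttcgggtttcgaggaccgcctggttctcct

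An unbroken run of 8 or more C or T bases within 3 bases of a RefSeq start was held by 17 of the 43 detected ribosomal protein genes in the promoter table (39.5%). The same rule found such a run in 2499 of all 27025 genes of that table (9.25%). Runs that hold the start base itself were found in 14 of the 43 (32.6%) and in 1230 of all genes (4.55%). The match is to an annotated start, which need not be the start used in these cells.

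Rpl41, a small protein of the large ribosomal subunit, had the highest signal of all genes, 935, 761 and 752 (816 ± 103). Rps14 of the small subunit gave 684, 423 and 503 (537 ± 134), and Rpl19 of the large subunit gave 639, 405 and 528 (524 ± 117). Rplp0, the stalk protein often used as a reference gene, gave 663, 368 and 494 (508 ± 148). In all 4 genes H2 was the highest array, and H3 was the lowest in all but Rpl41. In the whole list 55 of 57 ribosomal protein genes on the array were detected, with a median signal of 268 against 4.60 over all detected genes, and 46 of them were in the highest 10% of genes. Not detected were Rpl34 and Rps2, at 0.256, 0.225 and 0.214 and at 0.101, 0.333 and 0.0719, with a low flag on all 3 arrays, and Rpl17 was detected near the array median at 1.08 ± 0.0845. These weak spots sat among the strong ones of the same ribosome. Probes of 1 gene can differ as widely. Those of Rpl35 read 432 and 0.107, the weaker with a low flag on all 3 arrays. Those of Rpl27a read 472 and, at the weakest, 6.89.

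**Figure D1:**
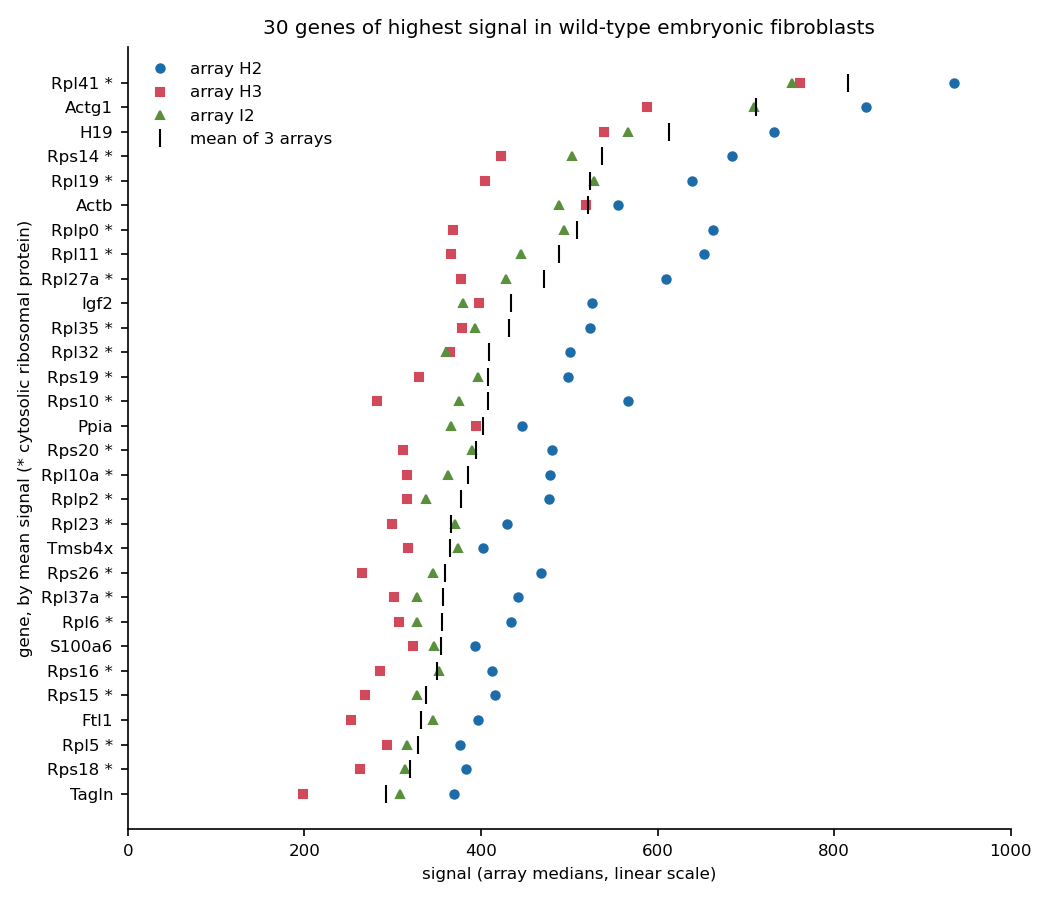
Signal of the 30 highest genes in each of the 3 wild-type cultures, in array medians on a linear axis. Points are single arrays and the bar is their mean, and H2 is the highest array in all 30 genes while H3 is the lowest in 25.

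The cytoskeleton supplied the other leading group. Actg1 and Actb, the cytoplasmic gamma and beta actins, ranked 2 and 6, at 836, 588 and 710 (711 ± 124) and 555, 519 and 489 (521 ± 33.2). The remaining probes of Actg1 were far weaker, down to 1.29. Tmsb4x, which holds actin monomers in reserve, gave 402, 318 and 373 (365 ± 43.1), and S100a6, a calcium-binding protein of growing cells, gave 393, 323 and 347 (354 ± 35.3). All 33 cytoskeletal and calcium-binding genes on the list were detected, with a median of 45.3. Among the 30 highest were also Ppia, the prolyl isomerase cyclophilin A (446, 394 and 366), and Ftl1, the light chain of ferritin (397, 253 and 346).

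H19 and Igf2 were the only members of the 10 highest genes outside the ribosome and the cytoskeleton. They are imprinted neighbours, a long noncoding RNA made from the maternal copy and a growth factor made from the paternal copy, and both are known for high activity in the embryo. H19 gave 731, 539 and 567 (612 ± 104), with its other probe at 145. Igf2 gave 525, 398 and 379 (434 ± 79.6). The binding protein gene Igfbp7 was at 326, 229 and 289, the clearance receptor Igf2r at 42.6, 32.3 and 39.5, the signalling receptor Igf1r at 20.9, 33.4 and 29.8, and Igf1 itself at 18.3, 14.4 and 16.1. Of the 28 genes of the IGF, CCN and TGF-beta list on the array 26 were detected, with a median of 27.7. The exceptions were Igfbp1, at 0.193, 0.801 and 0.407, and the receptor Tgfbr1, low on every array at 0.0918 to 0.325.

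Matrix genes were detected broadly: 119 of 142 on the array (83.8%, against 60.3% of all genes), with a median signal of 9.94. The fibrillar collagens, which build the cables of connective tissue, were found for 10 of 11 genes at a median of 66.1. Col3a1 was the highest-ranked at 185, 190 and 149 (175 ± 22.6), followed by Col5a2 at 181, 132 and 181 (165 ± 28.5) and Col11a1 at 105, 85.5 and 95.6 (95.5 ± 9.93). Col1a2 gave 107, 71.3 and 94.5, and its partner chain Col1a1 gave 55.0, 55.0 and 56.4 (55.5 ± 0.815), among the steadiest strong genes. Col2a1, the cartilage collagen, was at 5.14 ± 0.501, and Col11a2, another cartilage chain, was low on all 3 arrays at 0.200 to 0.449.

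Among the other collagens 19 of 24 were detected at a median of 3.66. The beaded-filament chain Col6a2 read highest at 115, 106 and 109 (109.8 ± 4.36) on its stronger probe. Its other probe was at 0.174, low on all 3 arrays. The partner chains Col6a1 and Col6a3 gave 21.2 ± 2.42 and 9.68 ± 1.35, so the order of the chains depends on the probe taken. The basement membrane chains Col4a1 and Col4a2, transcribed from a shared promoter, gave 25.6, 18.1 and 27.2 and 21.6, 19 and 24. The tissue-restricted chain Col4a3 was low on all arrays (0.130 to 0.272), and Col15a1 was at 0.0172, 0.0297 and 0.15. Laminins, the cross-shaped proteins of basement membranes, were the least complete matrix list, with 5 of 10 detected. Lamc1 gave 15.5, 14.7 and 15.1 and Lama5 gave 17.8, 10.1 and 15.2. Lamb1 and Lamb2 missed detection only through an irregular spot on 1 array, at 3.63, 3.72 and 4.24 and 4.45, 3.5 and 3.74.

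Of 30 matrix glycoproteins on the array, 27 were detected, with a median of 19.7 and 10 in the highest 10% of genes. Sparc, a collagen-binding protein of remodelling tissue, gave 372, 210 and 261 (281 ± 83.2), and fibronectin, Fn1, gave 305, 198 and 273 (258 ± 54.9). Tnc, the embryonic and wound glycoprotein tenascin C, gave 182, 172 and 200 (185 ± 14.6). The elastic fibre genes differed: Fbln5 was at 77.3 ± 11.3 and Fbn2, the fetal fibrillin, at 34.1 ± 2.57, while elastin itself, Eln, was at 6.04 ± 0.428. Vtn, the plasma protein vitronectin made by liver, and Tnxb were low on all 3 arrays, at 0.137 to 0.226 and 0.129 to 0.202. The proteoglycan list had 21 of 24 genes detected. Bgn (biglycan) gave 145, 116 and 122, Ogn gave 47.4, 44.7 and 41.4, and Dcn (decorin) gave 40.4, 50.8 and 30.6. The core proteins of cartilage and brain differed. Acan (aggrecan) and Bcan (brevican) were low on all arrays, at 0.595, 0.213 and 0.290 and 0.0676, 0.388 and 0.211, while Ncan (neurocan) was detected at 9.45, 8.35 and 8.99.

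The machinery that folds and crosslinks collagen was found for 19 of 21 genes at a median of 22.7. Serpinh1, the collagen chaperone of the endoplasmic reticulum, gave 186, 119 and 135 (146 ± 34.9), Pcolce, which speeds the trimming of procollagen, gave 138, 105 and 112, and the crosslinking oxidase Lox gave 105, 111 and 104 (107 ± 4.02). Crtap and Loxl1 followed at 66.4 ± 8.07 and 65.1 ± 2.90. Tgm2 and Loxl4 were not detected, at 0.891, 0.250 and 0.762 and at 0.121, 0.489 and 0.358. Tgm2 had a low flag in H3 only, and Loxl4 had a good flag in H3 only. Among proteases and inhibitors (18 of 22 detected) the membrane collagenase Mmp14 led at 79.4, 78.4 and 87.4, and Timp3, Timp1 and Timp2 were at 42.4 ± 2.27, 38.0 ± 5.11 and 25.4 ± 2.45. The inducible enzymes Mmp13 and Mmp9 were detected near the array median at 1.58 ± 0.609 and 1.01 ± 0.125.

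**Figure D2:**
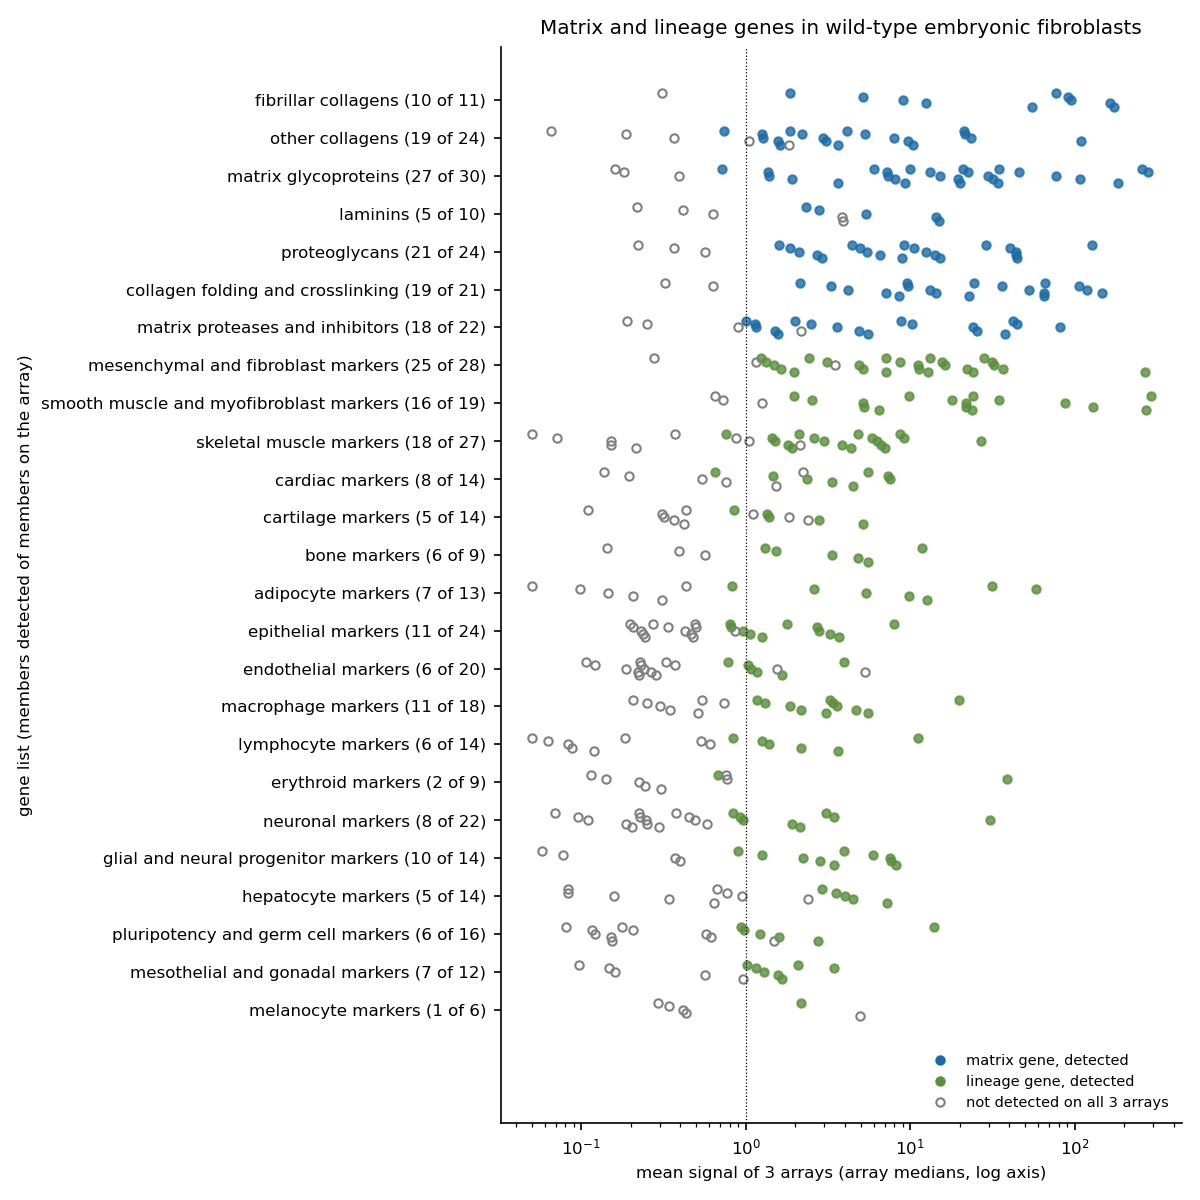
Mean signal over the 3 wild-type arrays of each gene of the matrix and lineage lists, in array medians on a log axis. Filled points are genes with a good flag on all 3 arrays, open points are genes without, those under 0.05 are drawn at 0.05, and the dotted line is the array median, and 5 of the matrix lists reach above 100 while most endothelial and neuronal genes are open points below 1.

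The labelled cell type was checked on markers of fibroblasts and mesenchyme, of which 25 of 28 were detected, at a median of 11.3. The intermediate filament Vim gave 330, 205 and 273 (269 ± 62.8). The mesenchymal transcription factor Tcf21 gave 37.8, 35.7 and 37.4, the glycoprotein Pdpn 32.6, 27.6 and 33.8, and the PDGF receptor Pdgfra 20.8, 52.9 and 24.0, with H3 clear of the other cultures. Twist1, Twist2, Prrx2 and Zeb1, factors of embryonic mesenchyme, lay between 15.7 and 24.2 in the mean. The 3 genes that were not detected included Cdh2, which had an irregular spot on H3 but read 3.06, 4.15 and 3.33, and Cd44, which was low on all 3 arrays at 0.145 to 0.507. In bulk RNA, fewer cells of a type and less RNA per cell cannot be told apart.

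Contractile genes of the smooth muscle and myofibroblast programme were among the strongest. Cultured fibroblasts are known to build stress fibres, and many such genes carry the CArG box, the binding motif of serum response factor, which actin dynamics control through its coactivators. Tagln, an actin-bundling protein, gave 370, 198 and 308 (292 ± 86.8), and Acta2, smooth muscle alpha actin, gave 288, 194 and 332 (271 ± 70.4), with its other probe at 198. Myl9, the smooth muscle regulatory light chain, gave 149, 97.8 and 144, and calponin Cnn1 gave 26.7, 10.3 and 28.9. Over the 16 detected genes of the list H3 had a median deviation of -0.261 on the log2 scale, which was -0.138 after quantile normalization. Among the 100 highest of all detected genes, which include Tagln, Acta2 and Myl9, H3 was the lowest array in 85. In 10 equal groups of all detected genes by signal, the deposited median deviation of H3 ran from -0.166 to 0.0116. The late smooth muscle genes Lmod1 and Myocd missed detection through a low flag in H2 only, at 0.439, 0.760 and 0.763 and at 0.456, 1.19 and 0.540. The other Myocd probe was low on all 3 arrays.

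The box is shown for the 4 highest-ranked genes of the smooth muscle and cytoskeleton lists that hold it before a RefSeq start. Actg1 ranked 2, but Myl6, Myl9 and Cnn2 ranked 79, 96 and 174. Capitals mark the box, CC and GG around A or T bases, and coordinates are in GRCm38.p6. The Actg1 stretch is chr11:120348561-120348600 on the minus strand, with the box beginning 90 bases before the start. That of Myl6, an essential light chain of myosin, is chr10:128493035-128493074 on the minus strand, 50 bases before it. The Myl9 box begins 161 bases before its start, in chr2:156775288-156775327 on the plus strand, and that of Cnn2, a calponin, 56 bases before its start, in chr10:79988529-79988568 on the plus strand.
Actg1: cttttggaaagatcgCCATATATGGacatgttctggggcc
Myl6: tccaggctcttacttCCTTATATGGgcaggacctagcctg
Myl9: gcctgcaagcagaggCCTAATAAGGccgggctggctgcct
Cnn2: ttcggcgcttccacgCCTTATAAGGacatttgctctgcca

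The pattern searched for is the same on both strands, though a single box need not read alike on both. The box stood within 250 bases before to 50 after a start in 3 of the 12 detected smooth muscle genes in the promoter table and in 4 of 26 cytoskeletal genes. Over the whole table it was found in 488 of 27025 genes (1.81%). A match describes letters and is not evidence of binding in these cells, and Tagln and Actb had no entry to search.

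Skeletal muscle genes were read at lower signals. Of 27 on the array 18 were detected, at a median of 4.11. Actc1, the alpha actin of heart and embryonic muscle, gave 24.7, 35.7 and 20.8, and Acta1 gave 10.2, 7.49 and 9.81. The muscle lineage factors Pax3 and Myod1 gave 8.25, 8.43 and 9.21 and 5.28, 3.26 and 3.0. The satellite cell factor Pax7 and the adult myosin Myh1 were at background, at 0.233, -0.0313 and 0.0129 and at 0.0421, -0.0985 and 0.0254. Over the 18 detected genes I2 had a median deviation of -0.240 on the log2 scale. Over all detected genes, in 10 equal groups by signal, that of I2 was -0.0144 to 0.0332.

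Cartilage, bone and fat were represented in part. Of 14 cartilage genes 5 were detected, at a median of 1.39, and the master factor Sox9 had a low flag in H2 and H3 and a good one in I2 (0.311, 0.417 and 0.575). Chad, Col9a1 and Hapln1 missed detection only through irregular spots, at 2.65, 2.07 and 2.47, 2.30, 1.69 and 1.50 and 0.940, 1.49 and 0.896. The other Col9a1 probe was low on all 3 arrays. Bone genes were found for 6 of 9, led by the homeobox gene Dlx3 at 12.5, 10.4 and 12.5, and of the osteocyte genes Mepe was detected at 4.66, 4.37 and 5.37 while Dmp1, Phex and Sost were not. Dmp1 was low on all 3 arrays, Phex was low in I2 only and Sost was good in H3 only. Among adipocyte genes 7 of 13 were detected. Cebpd, an early adipogenic and acute-phase factor, gave 40.5, 85.7 and 48.8, and the lipase Lpl gave 28.8, 41.7 and 23.5. Of genes of mature fat cells, Cidec, a lipid droplet protein, gave 11.5, 7.78 and 10.4 and the fatty acid carrier Fabp4 gave 4.21, 8.43 and 3.55, while Adipoq, Lep, Retn and Ucp1 were low on every array, the highest at 0.396.

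Lineages outside the mesenchyme were detected to different extents, and each count stands beside the 60.3% of all genes. Endothelial genes were detected in 6 of 20 cases at a median of 1.13, and the defining adhesion molecules Pecam1 (0.334, 0.228 and 0.115) and Cdh5 (0.135, 0.186 and 0.0417) were low on all arrays. Egfl7 and the VEGF receptor Kdr read 5.85, 4.30 and 5.82 and 1.54, 1.28 and 1.83 and missed detection only through an irregular spot in H3. Epithelial genes were found for 11 of 24 at a median of 1.78. Their strongest was the keratin Krt7, at 9.43, 5.63 and 8.87, the adhesion molecule Epcam was at 1.50, 1.05 and 1.25, and E-cadherin, Cdh1, was at 0.368, 0.528 and 0.543 with a good flag in I2 only. Neuronal genes were detected in 8 of 22 cases. Uchl1, a deubiquitinase abundant in neurons, gave 31.9, 24.7 and 35.3, and the synaptic protein Snap25 gave 2.38, 2.40 and 1.69. The neuronal tubulin Tubb3 was at 0.565, 0.237 and 0.563, with a good flag in I2 only, and the splicing factor Rbfox3 was low on all 3 arrays, at up to 0.438. Glial and neural progenitor genes reached 10 of 14 (71.4%) at a median of 3.70, with the progenitor filament Nes at 7.78, 7.64 and 7.54, the neural crest factors Foxd3 and Sox10 at 8.03, 7.03 and 7.56 and 8.5, 3.97 and 5.26, and Olig1 and Olig2 at or below 0.120.

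Lymphocyte genes were detected in 6 of 14 cases. Cd79a, a B-cell receptor subunit, gave 12.1, 10.5 and 10.9, but its partner Cd79b was at 0.473, 0.794 and 0.567, with a low flag in H2 only. Cd3e and Cd3g stayed at or below 0.112. Erythroid genes were detected in 2 of 9 cases. Of these, Tal1, a blood stem cell factor, was at 40.1, 38.1 and 38.1, and the embryonic globin Hbb-y at 0.677, 0.502 and 0.862, while Klf1 and Gata1 were at 0.104 to 0.350. Pluripotency and germ cell genes numbered 6 of 16. Tdgf1 gave 15.6, 11.7 and 14.5 and Pou5f1 2.70, 2.58 and 2.96, against Nanog at 0.274, 1.16 and 0.415 and Zfp42 at 0.0540, 0.116 and 0.0729. In each of these lists 1 gene was far above the rest, and each of those values rests on a single probe per gene.

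The Hox genes, which record position along the body, were detected in 26 of 34 cases. Hoxa5 was the highest-ranked at 19.1, 21.2 and 15.7, then Hoxb3 at 12.7, 9.19 and 11 and Hoxc8 at 11.8, 9.70 and 9.53. Posterior members were mixed, since Hoxb13 was detected at 11.6, 9.20 and 8.28 while Hoxa13 and Hoxd13 were not, at -0.0417 to 0.240 and 0.221 to 0.493. The median SD was 0.158 on the log2 scale in the A and B clusters and 0.165 in C and D, against 0.191 over all detected genes.

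Growth and arrest genes were read side by side. Of 26 proliferation genes 23 were detected at a median of 12.7, with the mitotic ubiquitin ligase Ube2c at 67.1, 45.7 and 50.8, the kinase Cdk1 at 41.2, 43.9 and 36.9 and Mki67 at 24.4, 29.8 and 27.5. Of 18 arrest and p53-pathway genes 17 were detected. The inhibitors Cdkn1a and Cdkn2b gave 88.9, 54.1 and 82.1 and 79.8, 55.3 and 79.7, while Cdkn2a, the locus of p16 and Arf that culture is known to switch on, was near the array median at 0.909, 0.925 and 1.35. Energy genes were nearly complete, with 15 of 15 in glycolysis (median 12.1) and 36 of 37 in oxidative phosphorylation (median 44.2). Gapdh, a common reference gene, gave only 2.05, 1.83 and 2.07 on its probe, and Eef1a1, the main elongation factor, gave 29.1, 20.7 and 27.3. All 5 members of the ING family were detected. Ing1 gave 11.7, 11.4 and 11.1 (11.4 ± 0.280), Ing4 gave 17.4, 16.5 and 16.9, Ing2 gave 16.8, 11.3 and 14.1, and Ing5 and Ing3 gave 1.85 ± 0.346 and 1.43 ± 0.203.

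The spread between cultures depended on level, and in the deposited values its median was higher at both ends than in the middle. The median SD of log2 signal was 0.191 over all detected genes. With the genes divided into 10 equal groups by signal, it was 0.236 in the lowest group, declined to 0.171 in group 7 and was 0.199 in the highest. Groups 2 and 3, at 0.211 and 0.205, were above the highest group. The share of genes ranging over 2-fold between arrays was 5.41% in the lowest group, 8.17% in group 5 and 2.85% in the highest. At the top the arrays were displaced against each other: H2 was the highest array in 71.1% of the genes of the highest group. After quantile or cyclic loess normalization, which remove such offsets, the SD of the highest group was 0.130 and 0.129 and that of the lowest hardly moved (0.238 under quantile), so that the rise at the top was lost. With normexp background correction, which lifts low signals, the order at the bottom was reversed, and the SD rose from 0.0655 in the lowest group through 0.165 in group 7 to 0.201 in the highest. Repeated positive control spots within an array had a median SD of 0.217, 0.123 and 0.172. Between arrays the mean of a positive control probe had a median SD of 0.272.

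**Figure D3:**
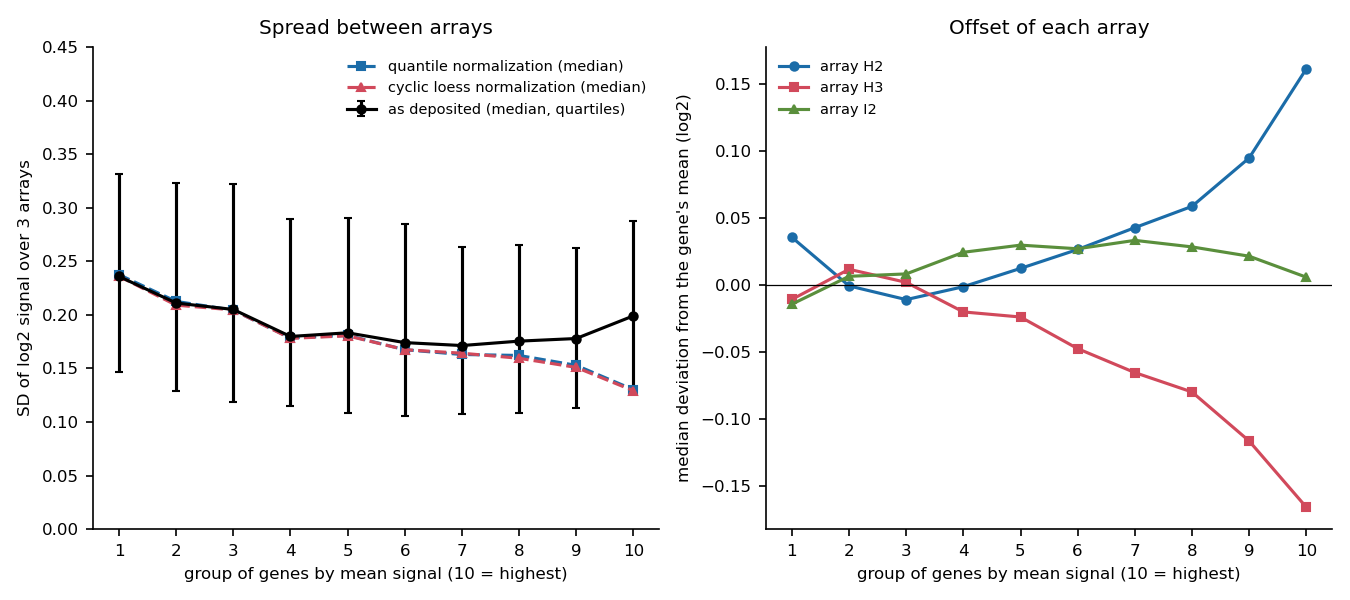
Left, SD of log2 signal over the 3 wild-type arrays in 10 equal groups of genes from the lowest (1) to the highest signal, with points at the median and bars from the lower to the upper quartile, and the medians after 2 normalizations as broken lines. Right, median deviation of each array from the gene's mean (log2) in the same groups, where H2 reaches 0.161 and H3 -0.166 in the highest.

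Arrays H2 and I2 were the closest pair, with a Pearson correlation of 0.982 across 10897 genes, against 0.976 for H3 and I2 and 0.963 for H2 and H3. These are across genes, which are not independent replicates. Between 2 arrays 112, 223 and 493 genes differed by over 2-fold in the same order. Over all 3 arrays 620 genes (5.69%) ranged over 2-fold from the lowest to the highest. H3 was the array farthest from the middle value in 340 of them, H2 in 215 and I2 in 65. Without H3 the number was 121 and without H2 it was 249. Each of these counts is over 2 arrays and the genes detected on them, and a range over 2 arrays tends to be narrower than over 3.

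The lists differed in how many of their genes ranged over 2-fold. None of the 27 detected matrix glycoproteins, 23 translation factors, 36 oxidative phosphorylation genes or 25 proteasome genes did, and 1 of 55 ribosomal protein genes did. Other matrix lists had 2 of 10 (fibrillar collagens), 2 of 19 (other collagens), 3 of 21 (proteoglycans) and 2 of 18 (proteases and inhibitors). The mesenchymal and fibroblast markers had 6 of 25 and the IGF, CCN and TGF-beta list 6 of 26. Elsewhere the counts were 4 of 5 for hepatocyte genes, 6 of 11 for macrophage genes, 9 of 20 for immediate early genes, 3 of 7 for adipocyte genes, 3 of 8 for cardiac genes and 6 of 20 for chemokines and cytokines. These counts describe 3 cultures beside a background of 5.69%. The ribosomal protein genes deviated together, highest in H2 in 53 of 55, with a median deviation of 0.310 in H2 and -0.277 in H3 that shrank to 0.0508 and -0.0508 after quantile normalization. In the highest group by signal H2 was the highest array in 71.1% of all genes.

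**Figure D4:**
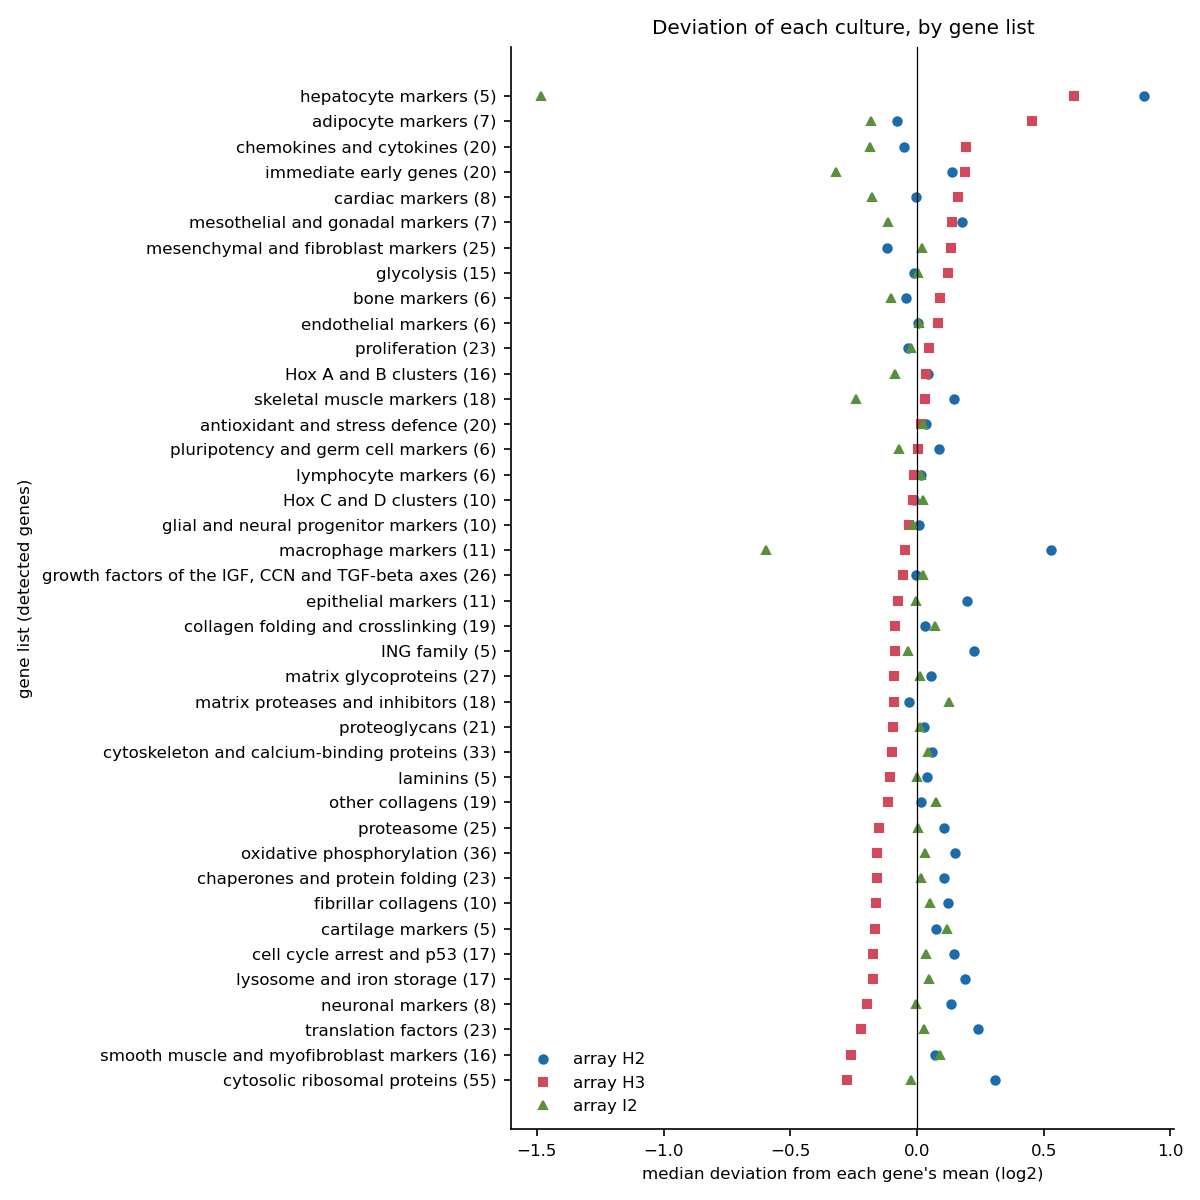
Median over each list's detected genes of the deviation of an array's log2 signal from the gene's mean, for every list with 5 or more detected genes, sorted by array H3. Hepatocyte genes span 0.897 in H2 to -1.48 in I2, macrophage genes 0.530 to -0.595, and the other lists lie between -0.318 (immediate early genes in I2) and 0.455 (adipocyte genes in H3).

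The widest range among genes of at least 5 array medians was that of S100a9, at 13.8, 3.99 and 0.866, a 15.9-fold range. S100a9 and S100a8 encode the 2 chains of calprotectin, the calcium-binding protein that fills neutrophils, and S100a8 was at 12.7, 4.85 and 1.02 (12.4-fold). Csta2, a stefin-type protease inhibitor, followed the same order at 15.2, 5.33 and 1.5. Camp, a neutrophil peptide, gave 3.15, 1.93 and 0.199, with a low flag in I2. Several detected macrophage genes had the same order. Lyz2, the myeloid lysozyme, gave 27.1, 19.7 and 12.4, the endotoxin coreceptor Cd14 gave 9.18, 4.99 and 2.51, and the adaptor Tyrobp gave 6.59, 2.42 and 1.76. H2 was the highest array in 10 of the 11 detected macrophage genes, and their summed signal was 71.6, 46.0 and 32.0. Over all detected genes, in 10 equal groups by signal, H2 was the highest array in 34.0% to 71.1%. The pan-leukocyte gene Ptprc (0.348, 0.125 and 0.143), Adgre1 (0.160, 0.489 and 0.109) and Itgam (0.578, 0.333 and 0.134) were not detected in any culture by the rule used. Laptm5 (0.327, 0.446 and 0.857), Cx3cr1 (0.431, 0.844 and 0.941) and Mrc1 (0.388, 0.608 and 0.541) also missed detection and read lowest in H2. Fcgr1, low on all 3 arrays, fell from H2 to I2 at 0.402, 0.320 and 0.178. Over the detected macrophage genes the order was kept after quantile normalization, with a median deviation of 0.463, -0.0308 and -0.608. How far resident blood cells take part in these values was not tested.

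Genes of fetal liver split the cultures in another way. Afp, alpha-fetoprotein, gave 10.3, 10.6 and 0.771, a 13.8-fold range, and H2 and H3 were indistinguishable beside the gap to I2. Fibrinogen beta, Fgb, gave 7.03, 5.30 and 1.10, fetuin, Ahsg, gave 4.48, 6.36 and 1.14, and transferrin, Trf, gave 5.55, 3.91 and 1.22. Albumin, Alb, had a good flag in H2 and H3 only, at 3.48, 3.60 and 0.0695. The exception was Ttr, at 3.54, 2.34 and 2.92. Of 14 hepatocyte genes on the array 5 were detected, with a summed signal of 30.9, 28.6 and 7.16. The liver factor Hnf4a was low in all cultures at -0.113 to 0.248, and Apoa4 and Apob were at or below 0.342. The part of liver cells in these values was not tested.

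Immediate early genes are switched on by serum or stress within minutes. Over the 20 detected, the median deviation in I2 was -0.318 on the log2 scale. Over all detected genes, in 10 equal groups by signal, it was -0.0144 to 0.0332. Fos gave 7.98, 13.2 and 2.26 (5.83-fold), Jun gave 21.5, 33.2 and 8.33, Ier2 gave 13.9, 20.1 and 5.89, and Egr1 gave 4.29, 7.18 and 2.01. Klf2, a factor induced by flow and growth arrest, was at 4.57, 17.9 and 3.14. The stress genes Gadd45a and Gadd45b ran the other way in H3, with 66.4, 31.4 and 51.4 and 70.9, 20.8 and 41.9. Of the 20 detected genes of the chemokine and cytokine list, 12 were highest in H3, 6 in H2 and 2 in I2. Over all detected genes, in 10 equal groups by signal, H3 was the highest array in 12.9% to 39.2%. Ccl2, which attracts monocytes, gave 8.99, 37.9 and 13.5, Cxcl1 gave 7.77, 23.6 and 9.90, and Cxcl5, which attracts neutrophils, gave 0.805, 7.25 and 1.69. Csf3 and Cxcl12 were steadier, at 13.2, 12.8 and 15.5 and 26.1, 35.1 and 24.4.

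H3 also carried the highest heart muscle signals. The atrial light chain Myl7 gave 2.36, 11.4 and 2.89 (4.84-fold), and Myl3 gave 4.93, 10.9 and 6.06. The ventricular light chain Myl2 and the cardiac troponin Tnni3, which missed detection through a low flag in H2, gave 0.255, 5.42 and 1.03 and 0.411, 3.26 and 0.921. The cardiac factors Tbx5, Gata4 and Hand1 did not follow them, at 8.48, 6.46 and 7.62, 3.28, 3.55 and 3.19 and 4.54, 4.08 and 4.87. Myh6, the atrial myosin, was low on all arrays at 0.0988 to 0.273. Of 14 cardiac genes 8 were detected, with a summed signal over all their detected probes of 28.1, 46.7 and 29.4. The share of heart cells in this was not tested.

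Other wide ranges were not part of these groups. Prrx1, a limb and connective tissue homeobox gene, gave 9.39, 2.58 and 13.9, with H3 low, and Etfa, a mitochondrial electron carrier, gave 67.3, 13.4 and 62.5. Flrt2, an adhesion protein, gave 6.07, 30.2 and 15.7 and Serpina3f, a serine protease inhibitor, 3.29, 16.4 and 5.07. Tnrc18 completed the 12 widest at 15.2, 2.81 and 6.09. After quantile normalization the ranges of these 12 genes were 4.42-fold to 15.4-fold, and with normexp they were 2.97-fold to 4.67-fold.

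**Figure D5:**
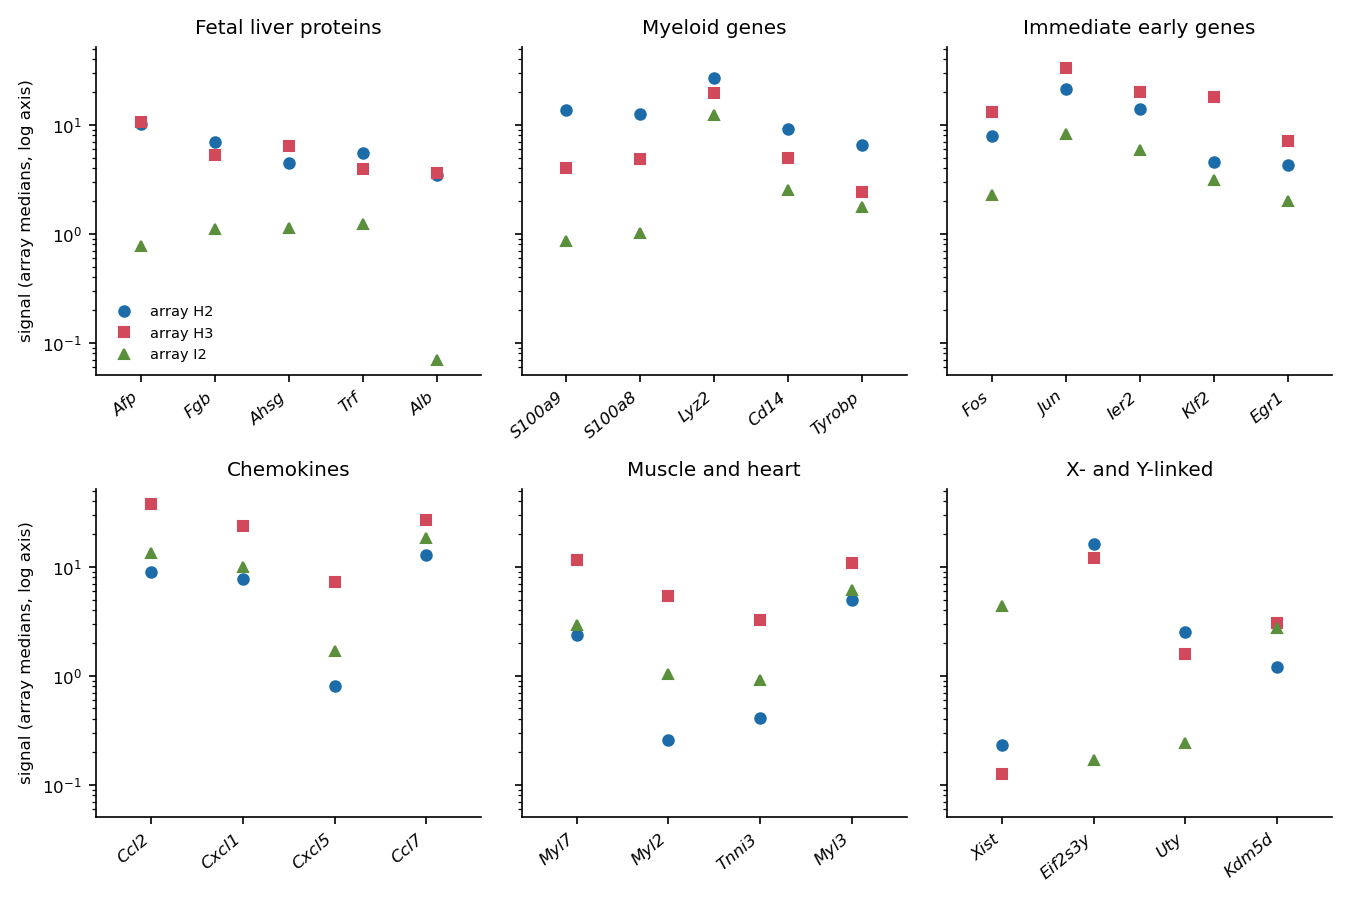
Signal of genes that varied between the 3 wild-type cultures, in array medians on a log axis, with a point per array. Of the genes drawn, those of fetal liver are low in I2 only, myeloid genes run from H2 down to I2, and chemokine and heart muscle genes are highest in H3. Xist is opposite to Eif2s3y and Uty. Ttr and Csf3, which depart from these patterns, are not drawn.

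At the other end, 6 genes of the 500 highest agreed closely. Hnrnpf, an RNA-binding protein, gave 119, 121 and 120.3, with an SD of 0.0120 on the log2 scale. Ckap4, a membrane protein of the endoplasmic reticulum, gave 67.6, 68.3 and 67.1, and Dynlt1b, a dynein light chain, gave 134, 136 and 133. Mrpl17, Tmem176a and Sdcbp gave 52.9 ± 0.513, 79.2 ± 0.908 and 62.1 ± 0.722. They kept a level across arrays whose strong spots were displaced, and were picked for that.

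The sex-linked transcripts separated I2 from the other cultures. Eif2s3y, a translation factor subunit encoded on the Y chromosome, gave 16.3 and 12.1 in H2 and H3 and 0.168 in I2, where its spot was low. Uty, a Y-linked histone demethylase relative, gave 2.51, 1.59 and 0.239. Xist, the RNA that coats the inactive X chromosome, was low in H2 and H3 at 0.232 and 0.125 and good in I2 at 4.35, while the other Xist probe was low on all 3 at 0.162, 0.261 and 0.273. The Y-linked Kdm5d did not follow them, with a good flag on all 3 arrays at 1.19, 3.07 and 2.72. The labels give no sex, and I2 is also the culture with the lowest values in most liver, myeloid and immediate early genes described above, so the effect of sex and that of the single culture cannot be told apart.

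The good flag set the lower end of what is described. A spot is good when its mean reaches the software's noise level for that spot, so the limit differs between spots. The lowest detected gene was Htr2c, a serotonin receptor, at 0.644, 0.585 and 0.490. Just outside, Megf6 gave 0.583, 0.660 and 0.526 and Chrd, the BMP antagonist chordin, 0.589, 0.592 and 0.486, with a low flag on all 3 arrays. Of the transcript spots 17605 (50.3%) were good on all 3 arrays, 11387 were low on all 3, and 2242 were good on 2 arrays and low on 1. An irregular spot on 1 array kept out a further 1168 spots that were good on 2, among them Sun2, a nuclear envelope protein, at 24.1, 21.4 and 19.1.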

How the data were processed

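Per the labels, total RNA was labelled with biotin, hybridised to CodeLink arrays, read on a GenePix scanner and quantified with CodeLink Expression Analysis 4.1.0.29054. Each deposited intensity is a background-subtracted spot mean scaled so that the median unmasked transcript spot of the array is 1. The scaling was worked out from the values, and all 36227 values per array equal those of the series value table. The deposited numbers are linear, although the labels also name a log2 step. Masked spots were treated as missing, and control spots were left out.

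Detected means a good flag (spot mean over the software's noise level at least 1) on all 3 wild-type arrays. The platform annotation gave 1 symbol to 21615 spots, several to 681 and none to 12671, and gene IDs tied 21487 spots to RefSeq GRCm38.p6. A gene took its detected spot of highest mean, but the summed signal of a list adds every detected spot of its genes. SDs are of log2 intensity over 3 cultures, and the number of arrays limits precision. Python 3.11.15, R 4.3.3 and limma 3.58.1 were used, and the spread summary was tested on simulated data. RefSeq supplied 32851 promoters, 250 bases before to 50 after a start.

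The cultures and the 43 gene lists were chosen with earlier results of these data known. Named by rule were the 30 highest genes, up to 5 highest detected and 4 undetected members per list, the 12 widest ranges at a mean of at least 5, the 6 steadiest of the 500 highest, Ing1, the sex-linked genes and spots at the edge of the flag. Other list members and Camp were picked after their values were seen. Alternatives were normexp (offset 50), quantile and cyclic loess normalization (floor 0.1), the series value table, other detection rules, the mean of a gene's probes, the median over arrays, and each array left out.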

Additional observations from a re-analysis of the deposited data

Results flagged for a closer look

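Some strong signals lie outside what the report describes. Of 1229 spots that were good or irregular on all 3 arrays with an irregular flag on at least 1, 10 had a mean of at least 10 array medians, the highest at 21.6 (Sun2). In all, 598 genes were left out through irregular spots alone. Among the 100 highest transcript spots, 14 had no gene symbol in the platform annotation. The strongest of these, GE1535122, read 616, 384 and 536 in H2, H3 and I2, and the next, GE40593, read 618, 327 and 395. A further 8 of the 100 carried several symbols and were not named.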

How the results depend on the processing

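The number of detected genes stayed within 1.5 times its value of 10897 under every alternative tried (11176 to 12525), and 95 to 100 of the 100 highest genes were kept. The median SD between arrays was 0.132 with normexp correction and 0.130 to 0.204 with 1 array left out. In the lowest 10% of genes it was 0.0655 with normexp, 0.332 when spots above the 95th percentile of negative controls replaced the flag, and 0.179 to 0.210 with 1 array left out. In the highest 10% it was 0.130 with quantile and 0.129 with cyclic loess normalization, and 0.128 to 0.248 with 1 array left out. Normexp with an offset of 50 pulls low signals together by its construction. Genes ranging over 2-fold, 620 as reported, numbered 128 with normexp, 1014 with the negative control rule, and 121 (without H3), 249 (without H2) and 510 (without I2) with 2 arrays. Of the other planned values 1283 stayed within the spread between cultures and 219 moved beyond it. List deviations under other normalizations, added after the data were seen, stayed in 82 cases and moved in 8, among them the ribosomal, smooth muscle (H3) and adipocyte (H2) lists. No paired analysis was possible because 1 group was described.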
